A study of Mus musculus with 18 samples.

Results

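The 8 genes described here are the JAK kinases Jak1, Jak2, Jak3 and Tyk2 and the tyrosine phosphatases Ptpn1, Ptpn2, Ptpn6 and Ptpn11, taken by symbol from a table of 16614 genes. All 8 were in the table, and all 8 were among the 11989 genes that passed the filter on low counts. The set was put together because Ptpn1 gained no LPS induction in KO cells, so its members were chosen by the measured LPS response of Ptpn1, whose values are given as a description without a test. The other 7 genes entered by name as the family members around it.

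The samples were 18 RNA libraries of BMDC, dendritic cells derived from mouse bone marrow, grown for 7 to 10 days with 20 ng/ml GM-CSF plus 100 ng/ml Flt3L and then enriched for surface XCR1. There were 5 KO LPS, 5 WT LPS, 4 KO Control and 4 WT Control libraries. LPS is lipopolysaccharide, a bacterial product that Toll-like receptor 4 senses. Which gene was deleted in KO cells, any Cre promoter, mouse age, and LPS dose and time are not in the labels. They also do not say which cells were enriched by flow sorting for CD11c and XCR1 and which with an XCR1 antibody on beads, or whether replicates are separate cultures or animals. A p-value here therefore measures the spread between the libraries as deposited. The title of the study names the balance of STAT5 and STAT3, which are activated by the kinases described here.

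JAK kinases are bound to the inner tails of cytokine receptors and phosphorylate the receptors and the STAT transcription factors when a cytokine brings the tails together. Jak1, Jak2 and Tyk2 serve many receptors in most cell types, while Jak3 pairs with the common gamma chain and is found mainly in blood cells. GM-CSF, the growth factor of these cultures, signals through Jak2 bound to the common beta chain. The phosphatases remove the phosphate groups again. Ptpn1 encodes PTP1B, which acts on Jak2 and Tyk2, Ptpn2 encodes TC-PTP, which acts on Jak1, Jak3 and STATs, and Ptpn6 encodes SHP-1, which is recruited to inhibitory receptors of blood cells. Ptpn11 encodes SHP-2, which more often promotes signalling through Ras.

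Library totals lay between 25590099 and 27375186 rounded estimated counts. Levels are given as CPM, counts scaled to a common library size with TMM factors, which allows for libraries in which a few abundant genes take many reads. These factors averaged 0.769 in KO LPS and 0.814 in WT LPS, against 1.32 in KO Control and 1.36 in WT Control. The size of an LPS effect therefore depends on the scaling. TPM, which also divides by transcript length, is used to compare different genes. A called gene is one that passed the edgeR test with an adjusted p below 0.05 over all genes tested. Markers of type 1 conventional dendritic cells (cDC1) were read in every group, and the summed CPM of 10 markers was 5620 to 6480 in KO LPS, 5940 to 7290 in WT LPS, 6920 to 8080 in KO Control and 7560 to 7870 in WT Control libraries. Within that list Cd8a averaged under 1 CPM in both Control groups, and Wdfy4 and Irf8 were the most abundant in each group. Itgae averaged 38.7 CPM in KO LPS, 58.5 CPM in WT LPS, 226.5 CPM in KO Control and 269.2 CPM in WT Control, and Tlr3 77.6, 71.3, 346.5 and 328.6 CPM in the same groups. Naaa averaged 514.5 CPM in KO LPS, 985.8 CPM in WT LPS, 1244 CPM in KO Control and 1119 CPM in WT Control. Xcr1, on which the cells were selected, averaged 280.8 CPM in KO LPS, 428.4 CPM in WT LPS, 109 CPM in KO Control and 175.1 CPM in WT Control. Cadm1 averaged 154.8 CPM in KO LPS and 112.6 CPM in WT LPS, Irf8 1569 and 1379 CPM, and Cd8a 50.15 and 34.7 CPM. In the same 2 groups Clec9a averaged 357.1 and 376.4 CPM, Wdfy4 3079 and 3188 CPM, and Batf3 11.5 and 14.97 CPM. With LPS the markers of this list thus differed between genotypes in both directions. In bulk RNA, fewer cells of a type and less RNA per cell cannot be told apart. Replicate 2 of WT LPS stood apart from the other 4 WT LPS libraries, with a chi-square of the counts per degree of freedom of 27.4 to 78.3, against 6.25 to 24 among those 4. Replicate 4 of KO Control stood apart too, at 17.9 to 19.6 against 2.75 to 6.75 among the other 3. The summed CPM of 6 neutrophil markers was 70.3 in replicate 5 of WT LPS and 18.8 in replicate 4 of WT Control, and at most 1.7 in each of the other 16 libraries.

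The tyrosine phosphatase gene Ptpn1 (gene ID 19246) had 64.2, 77.2, 59.6, 61.0 and 69.8 CPM in the 5 KO LPS libraries, against 169.8, 156.4, 166.9, 162.1 and 168.9 CPM in the 5 WT LPS libraries. It had 70.3, 67.5, 68.3 and 62.2 CPM in the 4 KO Control libraries, against 68.8, 68.2, 69.4 and 71.8 CPM in the 4 WT Control libraries. The WT LPS libraries were thus the high ones and overlapped with no other group, while the other 3 groups shared one range. The means were 66.3 ± 7.22 CPM in KO LPS and 164.8 ± 5.56 CPM in WT LPS (SD, n = 5 each). In Control cells they were 67.1 ± 3.44 CPM in KO and 69.6 ± 1.55 CPM in WT (SD, n = 4 each). The log2 fold change of LPS over Control was -0.02 ± 0.06 (SE) in KO and 1.25 ± 0.06 in WT, a 2.37-fold higher level in WT. KO over WT it was -1.31 ± 0.06 with LPS and -0.05 ± 0.07 in Control. Library numbers were also cut here into 5 blocks of 4 numbers, called runs, a grouping that the labels do not give. Run 2 held only libraries 5 and 7, both with LPS. Within these 5 runs, KO minus WT with LPS was -1.48 to -1.02 in log2 CPM (prior count 2, as for all within-run differences). Under a scaling by total counts alone, the LPS effect on Ptpn1 was -0.80 in KO and 0.50 in WT, while the median over all genes was -0.883 in KO and -0.801 in WT.

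**Figure D1:**
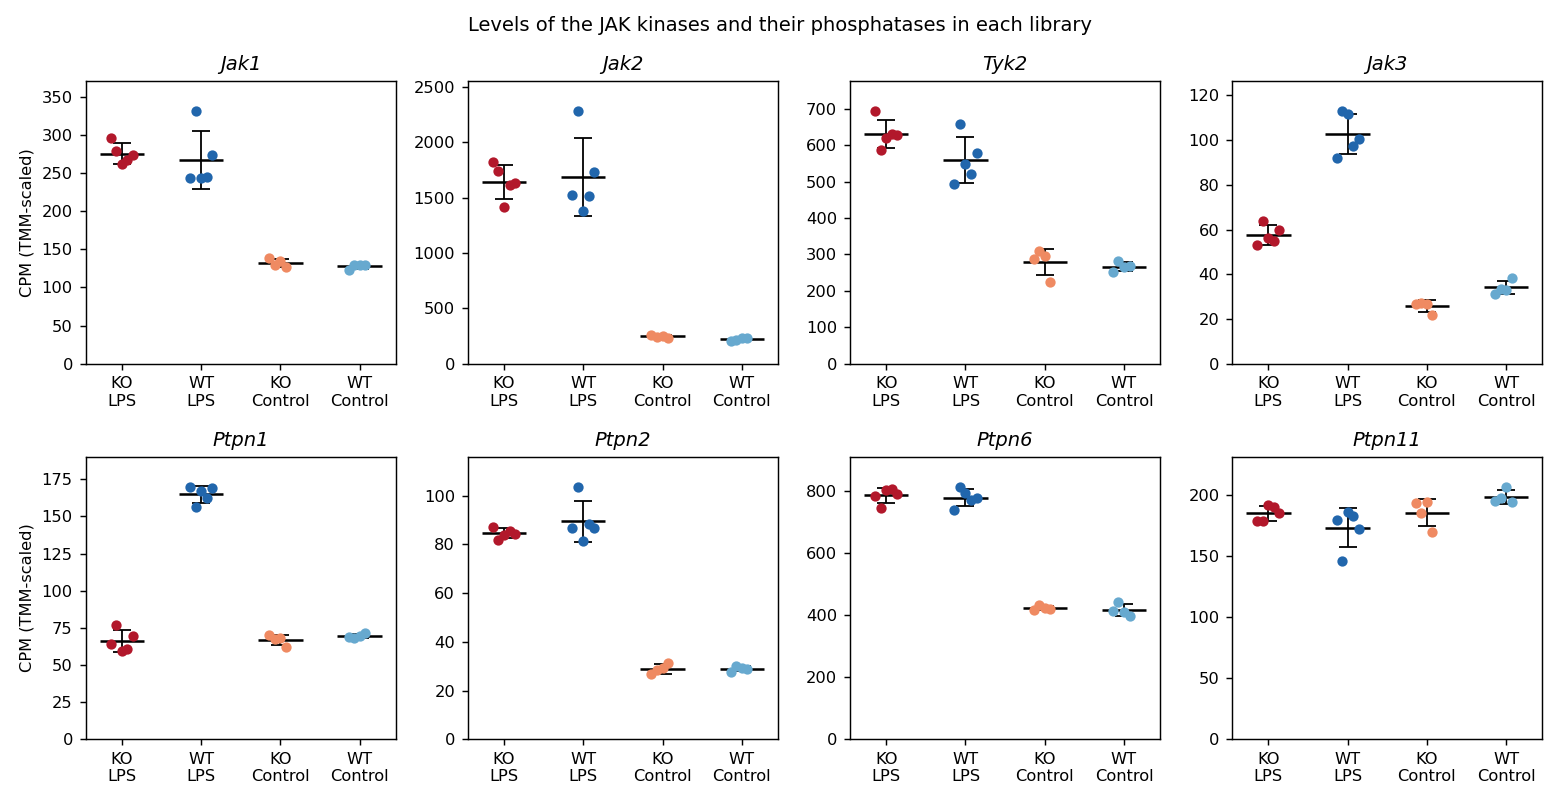
CPM (TMM-scaled) of the 4 kinases (upper row) and the 4 phosphatases (lower row) in each library, by group. Points are libraries, wide bars the mean and error bars the SD (n = 5 with LPS, n = 4 in Control), and each axis starts at 0. Ptpn1 stands at 156.4 to 169.8 CPM in WT LPS and at 59.6 to 77.2 CPM in the other 3 groups, and Jak3 is lower in KO than in WT with LPS and in Control.

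The promoter of Ptpn1 is shown because this gene defines the set, and that of Jak3 because Jak3 is the kinase that differed between genotypes. Both windows are the RefSeq sequence of build GRCm38.p6 from 250 bases before to 50 bases after the annotated start, 5′ to 3′ on the strand of the gene. The Ptpn1 window is chr2:167932077-167932376 on the plus strand and the Jak3 window chr8:71676133-71676432 on the plus strand. Capitals mark each match to a GC box (GGGCGG) or an ETS core (CCGGAAG) on either strand.
Ptpn1: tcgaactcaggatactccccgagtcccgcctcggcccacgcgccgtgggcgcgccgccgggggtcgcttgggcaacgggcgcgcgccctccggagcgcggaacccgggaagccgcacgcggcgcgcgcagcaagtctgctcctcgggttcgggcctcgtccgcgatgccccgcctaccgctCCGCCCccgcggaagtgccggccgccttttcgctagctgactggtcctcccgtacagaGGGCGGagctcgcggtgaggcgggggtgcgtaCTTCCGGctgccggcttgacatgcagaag
Jak3: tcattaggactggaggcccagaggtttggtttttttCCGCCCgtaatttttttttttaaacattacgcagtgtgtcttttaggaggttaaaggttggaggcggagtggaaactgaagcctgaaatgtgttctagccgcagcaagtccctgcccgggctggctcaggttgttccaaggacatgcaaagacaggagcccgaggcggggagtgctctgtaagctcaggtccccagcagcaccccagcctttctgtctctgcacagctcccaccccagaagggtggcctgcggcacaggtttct
The Ptpn1 window was 74% G and C and the Jak3 window 54.3%. The Ptpn1 window held GC boxes at window positions 182 to 187 and 240 to 245 and an ETS core at 272 to 278, whereas the Jak3 window held a GC box at 37 to 42. Windows of 7 of the 8 genes were searched on both strands for 7 motifs, which were picked with the expression values known. Each of the 7 windows held a GC box, as did 35.7% of 32851 mouse promoter windows of 300 bases. The ETS core was in the windows of Ptpn1 and Ptpn11 and in 8.86% of all windows. None of the 7 windows held the STAT-type GAS sequences TTCNNNGAA or TTCNNNNGAA (8.3% and 6.95% of all windows), the interferon-response sequence GAAANNGAAA (3.44%), the kB sequence GGGNNNTTCC (5.56%) or the AP-1 sequence TGANTCA (7.81%). These letter matches describe the windows, and binding was not measured.

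Among the kinases, Jak3 (gene ID 16453), the partner of the common gamma chain, was lower in KO cells with and without LPS. It had 53.0, 64.0, 56.2, 54.8 and 59.6 CPM in KO LPS libraries, against 92.2, 112.9, 111.5, 97.2 and 100.5 CPM in WT LPS libraries. Every KO LPS library lay below every WT LPS library. The means were 57.6 ± 4.34 CPM in KO LPS and 102.9 ± 9.01 CPM in WT LPS (SD, n = 5 each), and the log2 fold change was -0.84 ± 0.08 (SE, 95% interval -0.998 to -0.677, edgeR adjusted p = 5.2e-07). In Control cells Jak3 had 26.8, 27.3, 26.8 and 21.7 CPM in KO, against 31.3, 33.5, 33.1 and 38.5 CPM in WT. These groups did not overlap either, and the log2 fold change was -0.41 ± 0.09 (95% interval -0.591 to -0.228, adjusted p = 0.013). Within runs, KO minus WT was -0.986 to -0.753 with LPS (5 runs) and -0.824 to -0.219 in Control (4 runs), and since the groups did not overlap, any matching of libraries would give the same sign. The Control difference rested in part on replicate 4 of each genotype, which lay apart in opposite directions. Without replicate 4 of WT Control, the library with 18.8 CPM of neutrophil markers, the log2 fold change was -0.35 and the adjusted p 0.051. Without replicate 4 of KO Control it was -0.34, with an adjusted p of 0.048. The part of the neutrophil markers in the Control difference was not tested. With LPS, the fold change was -0.85 without replicate 5 of WT LPS, the library with the highest neutrophil marker sum, and -0.80 without replicate 2 of WT LPS.

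LPS raised Jak3 in both genotypes, 2.24-fold in KO (log2 1.16 ± 0.08, adjusted p = 7.1e-11) and 3.02-fold in WT (1.59 ± 0.08, adjusted p = 5.1e-13). The interaction, which is the LPS effect in KO minus that in WT, was -0.43 ± 0.12 on the log2 scale (95% interval -0.67 to -0.187, adjusted p = 0.042). This call was close to the threshold and was lost in 12 of the 18 fits that left out a single library, over which the adjusted p ran from 0.016 to 0.1. It was also lost with the replicate number of the titles as a block (-0.43, adjusted p = 0.05), with DESeq2 size factors (-0.39, adjusted p = 0.075) and without the filter on low counts (-0.42, adjusted p = 0.053). Within runs, the LPS effect on Jak3 was 0.981 to 1.45 in KO and 1.38 to 1.73 in WT, so these ranges overlapped.

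The other 3 kinases did not pass the test for genotype. Jak2 (gene ID 16452), which serves GM-CSF, interferon-gamma and IL-12 receptors, had 1820, 1741, 1413, 1616 and 1634 CPM in KO LPS libraries, against 1529, 2281, 1380, 1517 and 1730 CPM in WT LPS libraries. These groups overlapped widely, and the highest value was that of replicate 2 of WT LPS. In Control cells Jak2 had 263.1, 241, 253.9 and 236.6 CPM in KO, against 207.4, 215.3, 228.9 and 230.2 CPM in WT. Each KO Control library lay above each WT Control library, yet the fitted difference of 0.17 ± 0.11 had a 95% interval of -0.0639 to 0.411 and an adjusted p of 0.55. With LPS the difference was -0.04 ± 0.10, with an interval of -0.248 to 0.174 and an adjusted p of 0.86. LPS raised Jak2 more than any other of the 8 genes, 6.62-fold in KO (adjusted p = 2e-14) and 7.66-fold in WT (adjusted p = 8.4e-15).

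Jak1 (gene ID 16451), which serves interferon, gp130 and common gamma chain receptors, had 296.4, 278.3, 261.5, 266.8 and 273.7 CPM in KO LPS libraries, against 243, 330.8, 243, 244.5 and 273.8 CPM in WT LPS libraries. In Control cells it had 137.9, 129.3, 134.7 and 126.4 CPM in KO, against 122.7, 129, 128.9 and 129.2 CPM in WT. The genotypes overlapped under both treatments. The log2 fold change of KO over WT was 0.04 ± 0.07 with LPS (interval -0.102 to 0.191, adjusted p = 0.74) and 0.05 ± 0.08 in Control (interval -0.112 to 0.215, adjusted p = 0.85). Jak1 was higher with LPS 2.08-fold in KO and 2.09-fold in WT (adjusted p = 6.4e-11 and 6.5e-11).

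Tyk2 (gene ID 54721), which serves type I interferon, IL-10 and IL-12 receptors, had 692.6, 587.3, 619.7, 629.1 and 627.2 CPM in KO LPS libraries, against 493.3, 656.9, 547.6, 519.7 and 579 CPM in WT LPS libraries. In Control cells it had 286.5, 308.1, 295.5 and 225.5 CPM in KO, against 250.4, 281, 266.1 and 267 CPM in WT. With LPS, 4 of the 5 WT libraries lay below all KO libraries, and replicate 2 of WT LPS lay among the KO values. The log2 fold change of KO over WT with LPS was 0.17 ± 0.08, with an unadjusted p of 0.043 and an adjusted p of 0.18. Without replicate 2 of WT LPS, Tyk2 passed the threshold at 0.24 (adjusted p = 0.02), and Jak1 passed at 0.13 (adjusted p = 0.043). In that fit 27.9% of all genes were called between genotypes with LPS, against 10.8% with all libraries. LPS raised Tyk2 2.26-fold in KO and 2.1-fold in WT (adjusted p = 1.2e-10 and 5.6e-10).

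**Figure D2:**
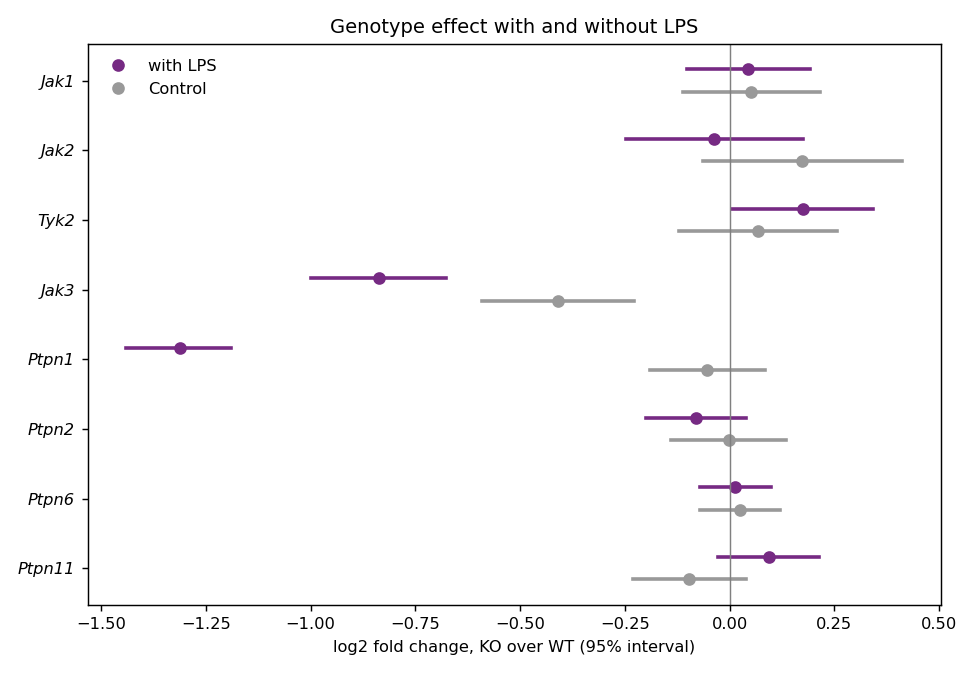
Log2 fold change of KO over WT for each gene, with LPS (purple) and in Control (grey). Points are the edgeR estimates and lines their 95% intervals, and the vertical line marks no difference. Jak3 lies left of 0 under both treatments (-0.84 and -0.41) and Ptpn1 with LPS (-1.31), while the other 6 genes lie between -0.10 and 0.17. The intervals of Ptpn1, which the set was chosen by, are a description and not a test.

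The other 3 phosphatases did not pass the test for genotype. Ptpn2 (gene ID 19255), the closest relative of Ptpn1, had 87.2, 81.8, 83.9, 85.6 and 84.1 CPM in KO LPS libraries, against 86.8, 103.5, 81.5, 88.5 and 86.8 CPM in WT LPS libraries. In Control cells it had 26.7, 28.6, 29.1 and 31.5 CPM in KO, against 27.6, 30.0, 29.3 and 29.1 CPM in WT. The genotypes overlapped under both treatments, at -0.08 ± 0.06 with LPS (interval -0.2 to 0.0391, adjusted p = 0.4) and -0.0019 ± 0.07 in Control (interval -0.139 to 0.135). LPS raised Ptpn2 2.92-fold in KO and 3.08-fold in WT (adjusted p = 9.5e-15 and 5.1e-15), and no library with LPS overlapped one without.

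Ptpn6 (gene ID 15170) had 782.6, 746.1, 805, 807.9 and 789.2 CPM in KO LPS libraries, against 738.4, 813, 793.5, 769.7 and 778.3 CPM in WT LPS libraries. In Control cells it had 415.9, 433.8, 423.8 and 420.2 CPM in KO, against 412.1, 442.5, 411.2 and 398.7 CPM in WT. Its intervals for genotype were the narrowest of the 8 genes, from -0.0715 to 0.0996 with LPS and from -0.0706 to 0.121 in Control. Ptpn6 was 1.86-fold higher with LPS in KO and 1.87-fold higher in WT (adjusted p = 1.7e-13 for both). These folds rest on the TMM scaling, and the much smaller effects under total-count scaling are given below.

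Ptpn11 (gene ID 19247) had 178.7, 178.6, 191.4, 190.1 and 184.8 CPM in KO LPS libraries, against 179.4, 146.2, 185.9, 182.3 and 171.9 CPM in WT LPS libraries. In Control cells it had 193.4, 185, 193.9 and 169.5 CPM in KO, against 195.1, 197.4, 206.3 and 193.9 CPM in WT. Every WT LPS library lay below every WT Control library, and Ptpn11 was lower with LPS in WT at a log2 fold change of -0.19 ± 0.06 (adjusted p = 0.006). In KO the groups overlapped and the LPS effect was -0.01 ± 0.06 (adjusted p = 0.93). The interaction of 0.19 ± 0.09 had an unadjusted p of 0.041 and an adjusted p of 0.24, so the LPS effects were not shown to differ. Under total-count scaling Ptpn11 was lower with LPS in both genotypes, at -0.79 in KO and -0.93 in WT, near the all-gene medians of -0.883 and -0.801.

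**Figure D3:**
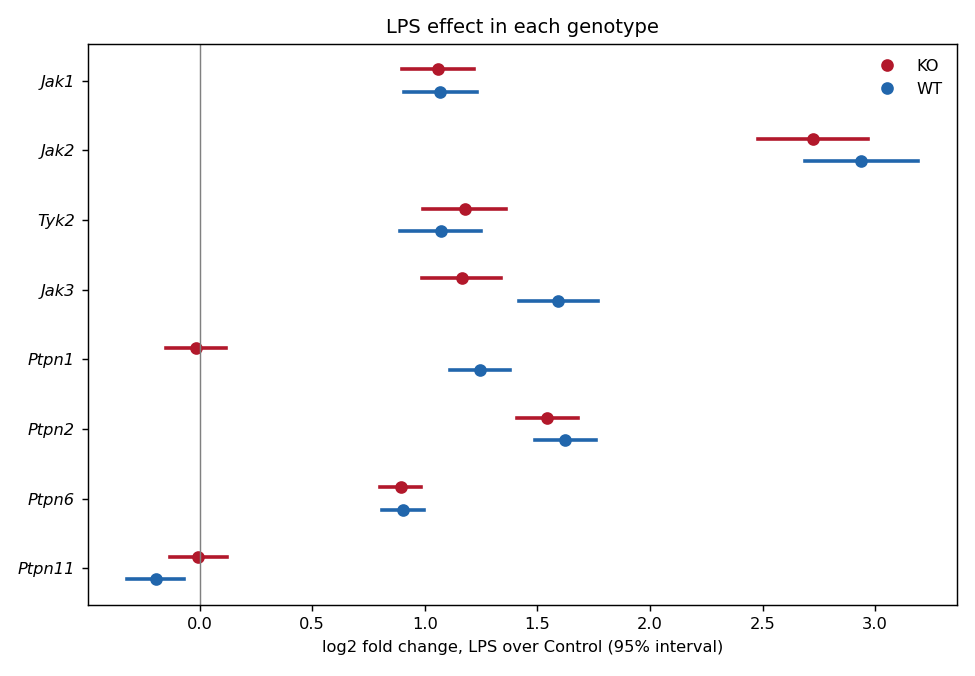
Log2 fold change of LPS over Control for each gene in KO (red) and WT (blue). Points are the edgeR estimates and lines their 95% intervals, and the vertical line marks no difference. Ptpn1, which the set was chosen by, lies at -0.02 in KO and 1.25 in WT, and its intervals are a description and not a test. Jak2 has the highest values (2.73 in KO, 2.94 in WT). Jak3 lies at 1.16 in KO and 1.59 in WT, a difference whose call was lost in 12 of 18 fits without a single library.

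Counted over the 7 genes that were tested, 0 were higher and 1 was lower in KO with LPS. Over all 11989 genes 5.3% were higher and 5.5% lower (10.8% in either direction). An unadjusted edgeR p under 0.05 was found for 2 of the 7 with LPS, beside 3147 of all 11989 genes. In Control cells 0 of the 7 were higher and 1 was lower, against 1.89% and 0.525% of all genes (2.41% in either direction). There 1 of the 7 had an unadjusted edgeR p under 0.05, beside 1665 of all 11989 genes. With LPS over Control, 6 were higher and 0 lower in KO, where 40% of all genes were higher and 46.2% lower (86.2% in all). In WT, 6 were higher and 1 was lower, where 40.7% of all genes were higher and 44.7% lower (85.5% in all). The interaction was lower for 1 and higher for 0, against 2.79% and 1.03% of all genes (3.82% in either direction). The split over all genes moved with the scaling. Of the genes called with LPS between genotypes, 49.1% were higher in KO, against 58.6% with DESeq2 size factors and 23% with total-count scaling, and for the interaction the shares were 27.1%, 42.9% and 18.9%. Of the genes called for LPS, 46.4% were higher in KO and 47.7% in WT, against 22.3% and 22.1% with total-count scaling. The LPS and genotype contrasts share libraries and the LPS response entered the choice of the set, so these counts are given beside the background and nothing is read from them. Under total-count scaling the 6 higher genes had smaller LPS effects in KO and WT, from 1.94 and 2.18 for Jak2 to 0.11 and 0.16 for Ptpn6, and all stayed above the all-gene medians given for Ptpn1.

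The order of the 8 genes by TPM, which is a level per length, is given within each group. Ptpn6 was highest in each group, at 487.4 TPM in KO LPS, 499.7 TPM in WT LPS, 412.6 TPM in KO Control and 442.9 TPM in WT Control. Jak2 was second with LPS, at 428.7 TPM in KO and 453.6 TPM in WT, and its WT LPS range overlapped that of Ptpn6. In Control cells Tyk2 was second, at 117.3 TPM in KO and 122 TPM in WT, followed by Jak2 at 102.2 TPM in KO and 98.8 TPM in WT. The ranges of Tyk2 and Jak2 overlapped in KO Control and did not in WT Control. With LPS, Tyk2 came after Jak2, at 170 TPM in KO and 155.6 TPM in WT, and then Jak1, at 67.3 TPM in KO and 67.1 TPM in WT. In Control cells Ptpn11 came after Jak2, at 65.6 TPM in KO and 76.5 TPM in WT, and then Jak1, at 50.8 TPM in KO and 53.3 TPM in WT. Jak3 was lowest in each group, at 19.9 TPM in KO LPS, 36.7 TPM in WT LPS, 14.0 TPM in KO Control and 20.3 TPM in WT Control. In KO LPS its range overlapped that of Ptpn1, which had 20.1 TPM there. In WT LPS Ptpn1 had 51.8 TPM, and the ranges of the 5 lowest genes, from Jak1 down through Ptpn2, Ptpn1 and Ptpn11 to Jak3, each overlapped the next.

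The make-up of the kinases differed with LPS. The 4 kinases summed to 685.8 ± 36.5 TPM in KO LPS and 712.9 ± 91.6 TPM in WT LPS (SD, n = 5 each), and to 284.3 ± 28.3 TPM in KO Control and 294.4 ± 19.3 TPM in WT Control (SD, n = 4 each). The deposited TPM carries no TMM factor, so differences of these sums between groups depend on the scaling. Shares and ratios within a library do not. Jak2 made up 62.4% of the kinase sum in KO LPS and 63.4% in WT LPS, against 36.1% in KO Control and 33.5% in WT Control. Jak3 made up 2.9 ± 0.294% in KO LPS and 5.2 ± 0.734% in WT LPS, and 4.9 ± 0.182% in KO Control and 6.88 ± 0.445% in WT Control. The ratio of Jak3 to Jak1, its partner on the common gamma chain receptors, was 0.295 ± 0.0271 in KO LPS and 0.55 ± 0.0639 in WT LPS, and 0.274 ± 0.0249 in KO Control and 0.38 ± 0.0296 in WT Control. The ranges of this ratio in KO and WT did not overlap under either treatment.

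The 4 phosphatases summed to 595.9 ± 19.4 TPM in KO LPS and 646.2 ± 36.3 TPM in WT LPS, and to 537.9 ± 20.9 TPM in KO Control and 585.6 ± 22.9 TPM in WT Control. These sums too carry no TMM factor, and their differences between groups are not read as differences in level. In TMM-scaled CPM, Ptpn6 was 1.86-fold higher with LPS in KO and 1.87-fold higher in WT. None of Ptpn2, Ptpn6 and Ptpn11 was called between genotypes, with LPS or in Control. Ptpn6 made up most of the phosphatase sum, at 81.8% in KO LPS, 77.3% in WT LPS, 76.7% in KO Control and 75.6% in WT Control. Ptpn1 made up 3.38 ± 0.444% in KO LPS and 8.02 ± 0.453% in WT LPS, and 5.95 ± 0.286% in KO Control and 6.2 ± 0.336% in WT Control. The ratio of Ptpn1 to Ptpn2 was 0.428 ± 0.036 in KO LPS and 0.963 ± 0.13 in WT LPS, and 1.17 ± 0.155 in KO Control and 1.21 ± 0.0388 in WT Control. With LPS the pair was thus about level in WT, and Ptpn2 stood above Ptpn1 in each of the 5 KO LPS libraries, where the ratio was at most 0.485.

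**Figure D4:**
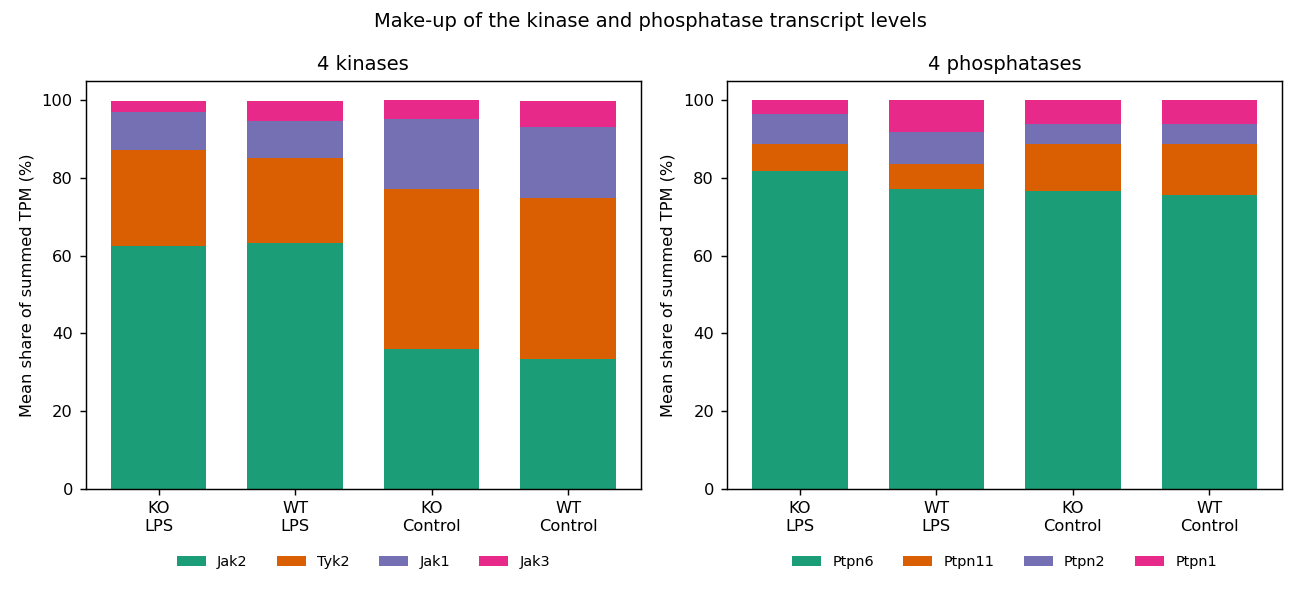
Mean share of each gene in the summed TPM of the 4 kinases (left) and of the 4 phosphatases (right), by group; shares run from 0 to 100%. Jak2 fills 62.4% and 63.4% of the kinase sum in KO LPS and WT LPS, against 36.1% and 33.5% in KO Control and WT Control, and Ptpn1 fills 3.38% of the phosphatase sum in KO LPS against 8.02% in WT LPS.

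The transcript length implied by the deposited counts and FPKM averaged 3933 bases in KO LPS, 3934 bases in WT LPS, 3927 bases in KO Control and 3926 bases in WT Control for Ptpn1, and 3463, 3464, 3455 and 3446 bases for Jak3 in the same order of groups. For Ptpn2, which enters the ratio to Ptpn1, it was 2153 ± 104, 2033 ± 67, 1962 ± 80.6 and 1981 ± 47.1 bases (SD). The part of isoforms in the results was not tested. Of the genes that overlap a member in the annotation and are in the table, Insl3, on the strand of Jak3, had at most 3 counts in a library and Raver2, opposite Jak1, at most 1.

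The genes whose log2 CPM followed each member most closely were found by Pearson correlation over the 18 libraries among 8958 genes of at least 5 CPM. The 18 points share 4 groups, so these values describe likeness of pattern and carry no test. For Ptpn1 they were Picalm, a clathrin adaptor (r = 0.978), Plekhg2 (r = 0.947) and Cyrib, which binds Rac1 (r = 0.935), and 1 gene reached 0.95. Picalm averaged 233.5 CPM in KO LPS, 320.2 CPM in WT LPS, 222.2 CPM in KO Control and 231 CPM in WT Control. Plekhg2 averaged 22.9 CPM in KO LPS, 47.9 CPM in WT LPS, 23.6 CPM in KO Control and 27.3 CPM in WT Control. Both stood higher in WT LPS than in the other 3 groups, as Ptpn1 did, which follows from how they were picked. For Jak3 they were Btla, an inhibitory receptor (r = 0.979), Vav1, a guanine exchange factor of blood cells (r = 0.978), and Atp8a1, a lipid flippase (r = 0.977), among 21 genes at or above 0.95. Btla averaged 402.2 CPM in KO LPS, 595.8 CPM in WT LPS, 242.7 CPM in KO Control and 253.4 CPM in WT Control. For Ptpn11 no gene reached 0.95, and Rapgef1 was nearest (r = 0.922). For Jak1, Jak2, Tyk2, Ptpn2 and Ptpn6 between 2092 and 2434 genes reached 0.95, so the nearest ones, such as Dll4 for Jak2 (r = 0.999) and Cd86 for Ptpn2 (r = 0.998), are among many with much the same pattern.

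Receptors that use these kinases were described with lists of named chains. Over all genes 5.3% were higher and 5.5% lower in KO with LPS (10.8% in either direction), the background for each list count below. Of 4 tested chains that pair with Jak1 and Jak3 through the common gamma chain, 0 were higher and 2 lower in KO with LPS, with a median log2 fold change of -0.0845 against -0.0176 over all genes. Il21r, the IL-21 receptor, averaged 119.4 ± 18.7 CPM in KO LPS and 193.8 ± 37.5 CPM in WT LPS, and each KO library lay below each WT library (-0.70 ± 0.14, adjusted p = 0.0028). Its LPS effect was smaller in KO, with an interaction of -1.07 ± 0.22 (adjusted p = 0.011). Il4ra, the IL-4 receptor alpha chain, averaged 536.1 ± 44.5 CPM in KO LPS and 666.5 ± 63.3 CPM in WT LPS, again without overlap (-0.31 ± 0.07, adjusted p = 0.0048). Il2rg, the common gamma chain itself, averaged 296.7 ± 4.75 CPM in KO LPS and 268.4 ± 48.6 CPM in WT LPS and did not pass the test (0.15 ± 0.10, adjusted p = 0.39). It was higher with LPS by 4.56 on the log2 scale in KO and 4.74 in WT.

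Csf2rb, the common beta chain that carries Jak2 in GM-CSF signalling, averaged 1225 ± 98.2 CPM in KO LPS and 1276 ± 80.5 CPM in WT LPS, a difference of -0.06 ± 0.07 (adjusted p = 0.65). Of the 5 interferon receptor chains, 1 was higher and 0 lower in KO with LPS (median 0.00402), against 5.3% and 5.5% of all genes. The higher chain was Ifnlr1, at 6.51 CPM in KO and 3.65 CPM in WT with overlap (0.83 ± 0.18, adjusted p = 0.0053). Without replicate 2 of WT LPS 2 of these chains were called, beside 27.9% of all genes. Of 6 gp130 family chains, 0 were higher and 1 was lower (median -0.36), against 5.3% and 5.5% of all genes. The lower chain was Lifr, at 0.721 CPM in KO and 1.25 CPM in WT with overlap (-0.79 ± 0.22, adjusted p = 0.027). This gp130 count was 0 without replicate 5 of WT LPS, where 8.86% of all genes were called, and 3 without replicate 2 of WT LPS, where 27.9% were. Of the 5 IL-10 and IL-12 family chains, 2 were higher and 0 lower (median 0.411), against 5.3% and 5.5% of all genes. Il12rb2, the IL-12 receptor chain that recruits STAT4, averaged 64.6 ± 3.02 CPM in KO LPS and 41.9 ± 1.51 CPM in WT LPS without overlap (0.62 ± 0.08, adjusted p = 4.1e-05). It was also higher in KO Control (0.48 ± 0.09, adjusted p = 0.0079). Il10ra averaged 1238 ± 53.6 CPM in KO LPS and 905.2 ± 211 CPM in WT LPS with overlap (0.45 ± 0.11, adjusted p = 0.0086). The list held 4 called chains without replicate 2 of WT LPS, again beside 27.9% of all genes.

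Among the STAT factors, the targets of the kinases, those of the title were compared in KO and WT cells with LPS. Stat5a differed by 0.54 ± 0.16 (adjusted p = 0.039), Stat5b by 0.38 ± 0.10 (adjusted p = 0.019) and Stat3 by -0.36 ± 0.07 (adjusted p = 0.0035). KO and WT libraries overlapped for Stat5a and Stat5b and did not for Stat3. Without replicate 5 of WT LPS, Stat5a no longer passed the test (0.56, adjusted p = 0.062), while Stat5b was at 0.41 (adjusted p = 0.026) and Stat3 at -0.34 (adjusted p = 0.012). Of 14 SOCS proteins and adaptors that bind JAKs, 1 was higher and 1 lower in KO with LPS (median 0.0169). Over all genes 5.3% were higher and 5.5% lower. Without replicate 2 of WT LPS 6 of the 14 were called, beside 27.9% of all genes. The higher one with all libraries was Cish, a STAT5 target, at 14.9 ± 3.15 CPM in KO and 9.42 ± 2.8 CPM in WT (0.67 ± 0.17, adjusted p = 0.014). The lower one was Socs3, a STAT3 target that inhibits gp130-bound JAKs, at 196.9 ± 25.2 CPM in KO and 293.5 ± 68.2 CPM in WT (-0.58 ± 0.13, adjusted p = 0.0065). For both Cish and Socs3 the KO and WT libraries overlapped, and STAT activity was not measured. Socs1, which inhibits JAKs directly, averaged 30.7 ± 2.35 CPM in KO LPS and 25.0 ± 4.26 CPM in WT LPS (0.30 ± 0.10, adjusted p = 0.063).

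Other tyrosine phosphatases give the setting for the 4 described here. Of 9 tested non-receptor phosphatases, 0 were higher and 2 lower in KO with LPS (median -0.151), against 5.3% and 5.5% of all genes. Without replicate 2 of WT LPS 4 of them were called, beside 27.9% of all genes. Ptpn22, a phosphatase of Src-family signalling in blood cells, averaged 20.6 ± 2.08 CPM in KO LPS and 27.8 ± 2.36 CPM in WT LPS without overlap (-0.43 ± 0.07, adjusted p = 0.00027). Ptpn12 averaged 23.5 ± 2.63 CPM in KO LPS and 29.1 ± 2.16 CPM in WT LPS with overlap (-0.31 ± 0.07, adjusted p = 0.0059). Unlike Ptpn1 in WT, both were lower with LPS in each genotype. Of 9 receptor phosphatases, 1 was higher and 1 lower in KO with LPS (median 0.145), against 5.3% and 5.5% of all genes. Without replicate 2 of WT LPS 4 of them were called, beside 27.9% of all genes. Ptpre averaged 10.1 ± 1.76 CPM in KO LPS and 18.3 ± 2.56 CPM in WT LPS without overlap (-0.85 ± 0.11, adjusted p = 2.9e-05). LPS lowered it more in KO, with an interaction of -0.78 ± 0.15 (adjusted p = 0.0051). Ptpro was higher in KO with LPS (0.44 ± 0.07, adjusted p = 0.00058) and in Control (0.44 ± 0.08, adjusted p = 0.0065). Ptprc, which encodes the leukocyte phosphatase CD45, averaged 1311 ± 25.1 CPM in KO LPS and 1308 ± 59.2 CPM in WT LPS (0.0033 ± 0.04, adjusted p = 0.97).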

How the data were processed

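Total RNA was sequenced on the DNBSEQ platform with paired reads of 150 bases, per the labels' protocols. HISAT and Bowtie2 and the build GRCm39 are named, per the submitters' processing notes, with versions, counting program, annotation and strand setting not given in the sources used here. Estimated counts, TPM and FPKM were deposited for each gene and library, per the file headers. The estimated counts deposited by the authors are not normalized, and 6.37% differ from a whole number by over 0.001. Deposited TPM and FPKM are both per transcript length and per library.

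Estimated counts were rounded and tested with edgeR 4.0.16 (quasi-likelihood, TMM, filter at a minimum count of 10 and total of 15), with a mean for each of the 4 groups over all 18 libraries and Benjamini-Hochberg adjustment over 11989 genes; a gene was called at an adjusted p under 0.05. The test of KO against WT with LPS was also run on simulated counts. They had a fixed spread and no outlying library, so that run does not cover libraries such as replicate 2 of WT LPS. TPM was used for levels between genes, with FPKM as the alternative. Other alternatives used DESeq2 1.42.0, limma 3.58.1, other scalings, no filter, blocks for replicates, and single libraries left out. The 8 genes, the gene lists and the motifs were chosen with earlier results of these data known. All 8 genes are named, as are Il2rg, Csf2rb, Stat3, Stat5a, Stat5b, Socs1, Socs3, Cish and Ptprc, up to 2 called genes per list with the highest difference between genotypes with LPS, and the 3 genes most like each member, of which some are named. The counts of the list of STAT factors are not reported here. Counts of called list members without replicates 2 and 5 of WT LPS or replicate 4 of WT Control were added after seeing the data. RefSeq promoters of GRCm38.p6 gave 7 of 8 windows used, and no genome of GRCm39 was used here. Markers of cDC2 summed to 114 to 152 CPM in KO LPS, 140 to 215 CPM in WT LPS, 158 to 173 CPM in KO Control and 164 to 199 CPM in WT Control. Those of monocytes and macrophages, led by Lyz2, summed to 1050 to 1630, 1270 to 1500, 1790 to 2050 and 1750 to 1830 CPM in the same groups, and those of plasmacytoid DC, led by Tcf4 in each group, to 168 to 206, 147 to 207, 51.8 to 55.6 and 51.9 to 57.4 CPM. Lymphocyte markers summed to at most 6.55 CPM, erythroid markers to at most 12.2 CPM and mast cell and basophil markers to at most 28 CPM in a library with LPS. The mast cell and basophil sum was almost all Hdc, which averaged 22.4 CPM in KO LPS and 18.2 CPM in WT LPS. In that list Mcpt8, Fcer1a, Gata2 and Ms4a2 averaged at most 0.0344 CPM in any group.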

Additional observations from a re-analysis of the deposited data

Results flagged for a closer look

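In KO Control, replicate 4 had the lowest Jak3 level, 21.7 CPM against 26.8 CPM in the nearest of the other 3 libraries, a gap of 0.917 of the range of the group. In WT Control, replicate 1 had the lowest Jak1 level, 122.7 CPM against 128.9 CPM in the nearest library, a gap of 0.959 of the range. These were 2 of 32 groups of 4 or 5 libraries checked, and chance alone flags about 1 in 20. The LPS effect on Jak3 differed between genotypes, at -0.43 on the log2 scale for KO minus WT, by the interaction term of edgeR (adjusted p = 0.042), and the call was lost in 12 of 18 fits without a single library.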

How the results depend on the processing

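Over 938 recomputed values of the 7 tested genes, 43 changed sign, in 10 results, and none of these was called. The LPS effect on Ptpn1 in KO, which was near 0 and not tested, changed sign in 6 of 134 recomputed values of Ptpn1, at 0.0769 with DESeq2 size factors, 0.0770 with the DESeq2 test, 0.0050 in a fit of the compared groups alone, and within -0.0746 to 0.0212 over the fits without single libraries. With DESeq2 size factors, the LPS effect on Ptpn11 in KO was 0.0870, and the interaction was 0.0300 for Jak1 and 0.0275 for Ptpn6. The DESeq2 test gave 0.0870, 0.0300 and 0.0276 for the same values, and limma-voom gave 0.00302 for the interaction of Jak1. With total-count scaling, KO over WT was -0.0194 for Ptpn6 in Control, and with LPS -0.0308 for Jak1 and -0.0669 for Ptpn6. With a replicate block of library runs, the LPS effect on Ptpn11 in KO was 0.0314 and the interaction of Jak1 0.0021. Without libraries 5 and 7, which are replicate 2 of WT LPS and of KO LPS and have no Control beside them, KO over WT with LPS was 0.087 for Jak2 and 0.00113 for Ptpn2. There the LPS effect on Ptpn11 in KO was 0.0279, and the interaction was 0.113 for Jak1, 0.0253 for Ptpn2 and 0.0584 for Ptpn6. In a fit of the compared groups alone, the LPS effect on Ptpn11 in KO was 0.0150. Leaving out single libraries, KO over WT ran from -0.0459 to 0.0363 for Ptpn2 in Control, and with LPS from -0.0978 to 0.0959 for Jak2 and from -0.00467 to 0.0322 for Ptpn6. The LPS effect on Ptpn11 in KO ran from -0.0465 to 0.0157, and the interaction from -0.0396 to 0.0814 for Jak1 and from -0.0411 to 0.00999 for Ptpn6.

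The number of the 7 genes called with LPS between genotypes, 1 in the reported fit, was 2 with total-count scaling (Ptpn2 added, at -0.16), 3 without libraries 5 and 7 (Jak1 and Tyk2 added) and 1 to 3 without single libraries. In Control it was 0 to 1 without single libraries. For the interaction it was 0 with DESeq2 size factors, 0 without the filter, 0 with the replicate block of title numbers, and 0 to 1 without single libraries. The counts over all genes moved more. In Control, 289 genes became 494 with the DESeq2 test, 614 with a replicate block of library runs, 822 without libraries 5 and 7, 895 with the compared groups alone and 114 to 751 without single libraries. With LPS, 1294 genes became 3238 without libraries 5 and 7, 619 with the compared groups alone and 805 to 3344 without single libraries. For the interaction, 458 genes became 813, 882 and 1591 under the DESeq2 test, the block of runs and the loss of libraries 5 and 7, and 208 to 1501 without single libraries. The cause was not tested.

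Same-numbered KO and WT libraries deviated together with correlations of 0.0287 to 0.248 in Control and 0.00923 to 0.353 with LPS. Such correlations cannot show whether the replicate numbers of the titles pair the libraries. Runs of library numbers put the same KO and WT libraries of a treatment together as the title numbers do. Runs of library numbers gave 0.14 to 0.273 between LPS and Control libraries of WT and -0.0308 to 0.136 between those of KO, and a block of runs changed no call of the 7 genes. With the title number as a replicate block, Jak3 was at -0.41 in Control (adjusted p = 0.017) and -0.84 with LPS (adjusted p = 3.7e-06), and its interaction was -0.43 (adjusted p = 0.05).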
